A study of Mus musculus with 2 samples.

Results

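The genes S100a8, S100a9, Lcn2, Wfdc21, Mrgpra2b, Ltf, Ngp, Camp and Fcnb, which code for late neutrophil granule proteins, alarmins and companions of these, were examined in leukemic bone marrow LSK cells (Lin-Sca-1+c-Kit+, the fraction that holds stem cells and early progenitors). They are 9 of the 32285 genes in the files and were chosen by name with earlier results of the same data in view, among them the higher level of several in the library that lacks miR-142, so the comparison of the libraries below is a description and not a test. The LSK cells were sorted from mice 8 to 10 weeks old and profiled cell by cell by 3′ RNA sequencing in droplets (10x Genomics). One library came from miR-142 WT CML mice (WT) and the other from miR-142 KO CML mice (KO), with 1 library per group. Both groups carried the SCLtTA/BCR-ABL transgenes on the B6 background, in which the SCL promoter drives a tetracycline-regulated activator in early blood cells and BCR-ABL is switched on when tetracycline is withdrawn, and both had been induced for 2 weeks. The KO mice also lacked miR-142 in every tissue. How many mice contributed cells to a library is not given in the sources used here. With no replicates, intervals cover counting error only and say nothing of the spread between cells or between mice.

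Neutrophils fill their granules in waves as they mature. Elastase, myeloperoxidase and their relatives are made first, by promyelocytes, under factors such as GFI1 and C/EBP-alpha. Lactoferrin (Ltf), the cathelicidin (Camp), neutrophilic granule protein (Ngp) and lipocalin 2 (Lcn2) belong to the later secondary granules and depend on C/EBP-epsilon, and the alarmins S100a8 and S100a9 come to fill the cytosol of mature cells. Stem cells and early progenitors normally hold little of the later products, while miR-142 is a microRNA of blood cells.

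The sequences of the deleted microRNA are shown first, since its absence is what separates the libraries by design. Both arms of miR-142 lie on the plus strand of chromosome 11, the 5p arm at chr11:87756867-87756887 and the 3p arm at chr11:87756903-87756925 (RefSeq, GRCm38.p6). The seed, bases 2 to 8 from the 5′ end, is in capitals.
mmu-miR-142a-5p: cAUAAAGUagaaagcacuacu
mmu-miR-142a-3p: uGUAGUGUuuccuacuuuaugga
The 7-base complements of these seeds, ACTTTAT and ACACTAC, were in 0 of the 9 longest annotated 3′ untranslated regions (GENCODE vM21), against 14% and 5.90% of 21473 genes. These regions were short, from 59 bases in Camp to 606 bases in Ngp, where the median gene had 928. With 6 bases, CTTTAT was in S100a9 and Ltf, against 36.1% of all these genes, and CACTAC in Ngp, against 16.7%.

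Upstream, the C/EBP-type motif TTNNGNAA, searched on both strands, was found in the 250 bases before the start of 7 of the 8 genes in the RefSeq promoter table, and in 36.8% of all 32851 promoters there. Camp was the one without it. GAGGAA (PU.1) was in 3 of the 8 and in 23.3% of all promoters, TGTGGT (RUNX) in 1 and 14%, and AATCAC (GFI1) in 2 and 9.14%. For Mrgpra2b the RefSeq start lies inside the longer GENCODE gene given further on, so its stretch is upstream of the RefSeq transcript only. The stretches below are those of the upstream windows that lie outside annotated exons and hold the C/EBP-type motif in capitals. They are shown because the motif was shared by genes that were well detected (S100a8, Mrgpra2b, Fcnb) and by genes that were hardly detected (Ltf, Ngp).
S100a8 (chr3:90668858-90668977, plus strand): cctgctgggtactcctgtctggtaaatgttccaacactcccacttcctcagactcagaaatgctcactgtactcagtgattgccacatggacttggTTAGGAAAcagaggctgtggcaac
Mrgpra2b (chr7:47489587-47489706, minus strand): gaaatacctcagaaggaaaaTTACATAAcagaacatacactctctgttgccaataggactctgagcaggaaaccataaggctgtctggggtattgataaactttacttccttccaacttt
Fcnb (chr2:28084886-28085005, minus strand): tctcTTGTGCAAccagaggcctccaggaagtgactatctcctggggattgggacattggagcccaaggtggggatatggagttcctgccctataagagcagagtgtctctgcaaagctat
Ltf (chr9:111019151-111019270, plus strand): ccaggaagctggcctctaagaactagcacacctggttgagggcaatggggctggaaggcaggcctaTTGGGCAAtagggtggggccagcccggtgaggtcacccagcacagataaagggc
Ngp (chr9:110419627-110419746, plus strand): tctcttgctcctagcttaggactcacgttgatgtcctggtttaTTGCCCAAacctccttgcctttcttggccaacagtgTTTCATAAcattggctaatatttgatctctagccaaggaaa

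Cells were barcodes of at least 8000 unique molecular identifiers (UMIs, counted molecules) with under 10% mitochondrial UMIs. There were 5363 WT cells with a median of 19443 UMIs and 5458 KO cells with a median of 24181.5 UMIs, and 4 cell barcodes occurred in both libraries. Levels are UMIs summed over the cells of a library per 1000000 UMIs (CPM), in 138183896 WT and 158438757 KO UMIs. A UMI stands for 1 captured 3′ end, so levels were not divided by gene length. The host transcript of the deleted microRNA, Mir142hg, had 1260 UMIs in WT against 20 UMIs in KO. Of the sort markers, Kit stood at 86.4 and 68.3 CPM, Cd34 at 255 and 199 CPM and Ly6a (Sca-1) at 96.8 and 153 CPM in WT and KO.

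Of the 9 genes, 6 were well detected and higher in KO, and 3 were at or near 0. S100a8, S100a9, Lcn2, Wfdc21, Mrgpra2b and Fcnb reached 50 UMIs over both libraries and all 6 lay at least 2-fold higher in KO, where 2.63% of the 14053 genes with 50 UMIs did and 7.93% lay at least 2-fold lower. Since the genes were chosen for this contrast, nothing is read from that count. Summed, the 9 genes gave 12636 UMIs (91.4 CPM) in WT against 99593 UMIs (629 CPM) in KO, with a log2 ratio of 2.78 (95% interval 2.75 to 2.81). Under a size factor in place of the library totals, which shifts the genes by 0.135 on the log2 scale, it was 2.92. Weighted to 1 composition of 9 cell groups, which include the cells of no marker gate and are described further on, it was 1.65.

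The alarmins S100a8 and S100a9, whose products form calprotectin, lie on chromosome 3 (GRCm38), S100a8 at 90668978 to 90670035 on the plus strand and S100a9 at 90692632 to 90695721 on the minus strand. S100a8 had 1953 UMIs in WT against 16897 UMIs in KO. Its level was 14.1 CPM (95% interval 13.5 to 14.8) against 107 CPM (105 to 108), with a log2 ratio of 2.92 (2.85 to 2.98). S100a9 had 856 and 5657 UMIs, or 6.19 CPM (5.79 to 6.62) against 35.7 CPM (34.8 to 36.6), with a log2 ratio of 2.53 (2.42 to 2.63). Both were thus higher in KO by more than counting error. That error takes UMIs as independent, whereas a single WT cell held 287 of the S100a8 UMIs and a single WT cell 223 of the S100a9 UMIs. There were 2.28 UMIs of S100a8 for each of S100a9 in WT and 2.99 in KO.

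Lcn2, which codes for the siderophore-binding lipocalin 2 (chromosome 2, 32384633 to 32388252, minus strand), was the most abundant of the 9 and gave 58.2% of their UMIs in each library. It had 7350 UMIs (53.2 CPM, 52.0 to 54.4) in WT against 58006 UMIs (366 CPM, 363 to 369) in KO, with a log2 ratio of 2.78 (2.75 to 2.82). Mrgpra2b, which codes for a Mas-related G protein-coupled receptor (chromosome 7, 47463806 to 47528862, minus strand), had 1573 UMIs (11.4 CPM, 10.8 to 12) and 9300 UMIs (58.7 CPM, 57.5 to 59.9), with a log2 ratio of 2.37 (2.29 to 2.44). It has a close neighbour and paralog, Mrgpra2a, with 638 UMIs in WT and 3693 in KO, and it overlaps the pseudogene Gm7255, so the split of reads between them is uncertain.

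Wfdc21, which codes for a whey acidic protein domain protein (chromosome 11, 83746940 to 83752642, plus strand), had the widest gap of the 6. It gave 833 UMIs (6.03 CPM, 5.63 to 6.45) in WT against 9339 UMIs (58.9 CPM, 57.8 to 60.2) in KO, with a log2 ratio of 3.29 (3.19 to 3.39). Fcnb, the gene of the lectin ficolin B (chromosome 2, 28076378 to 28084885, minus strand), was the least abundant of the 6, with 59 UMIs (0.427 CPM, 0.325 to 0.551) and 342 UMIs (2.16 CPM, 1.94 to 2.40), with a log2 ratio of 2.34 (1.94 to 2.76).

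The 3 textbook genes of secondary granules lie on chromosome 9 and were barely present in either library. Ltf (111019271 to 111042767) had 5 UMIs in WT against 2 UMIs in KO, with a log2 ratio of -1.52 whose interval of -4.91 to 1.09 holds 0. Ngp (110419747 to 110423012) had 3 and 23 UMIs and Camp (109847379 to 109849617) had 4 and 27 UMIs. Their log2 ratios were 2.74 (1.01 to 5.12) and 2.56 (1.04 to 4.53). The highest level among the 3 was that of Camp in KO, 0.170 CPM. Of the late granule genes proper only Lcn2 was well detected, so the set is referred to here by its genes and not by a stage. The 15 listed markers of mature neutrophils were mixed. Of these, 13 in WT and 14 in KO had a UMI, 5 and 6 reached 10 CPM, and their summed level was 135 and 234 CPM. Retnlg had 3 and 4 UMIs, Mmp9 6 and 9, Ly6g 4 and 14, Itgb2l 0 and 13, and Stfa2l1 0 in both. Pglyrp1 (30.9 and 109 CPM), Ltb4r1 (18.7 and 38.5 CPM) and Cxcr2 (5.80 and 11.3 CPM) were higher in KO, as was Cd177 with 7 and 159 UMIs. Csf3r (31.0 and 32.5 CPM), Clec4d (16.3 and 16.4 CPM) and Padi4 (16 and 19.8 CPM) were closer, and Mmp8 (2.87 and 0.252 CPM), Ifitm6 (8.76 and 3.79 CPM) and Il1b (4.88 and 1.65 CPM) were lower.

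**Figure D1:**
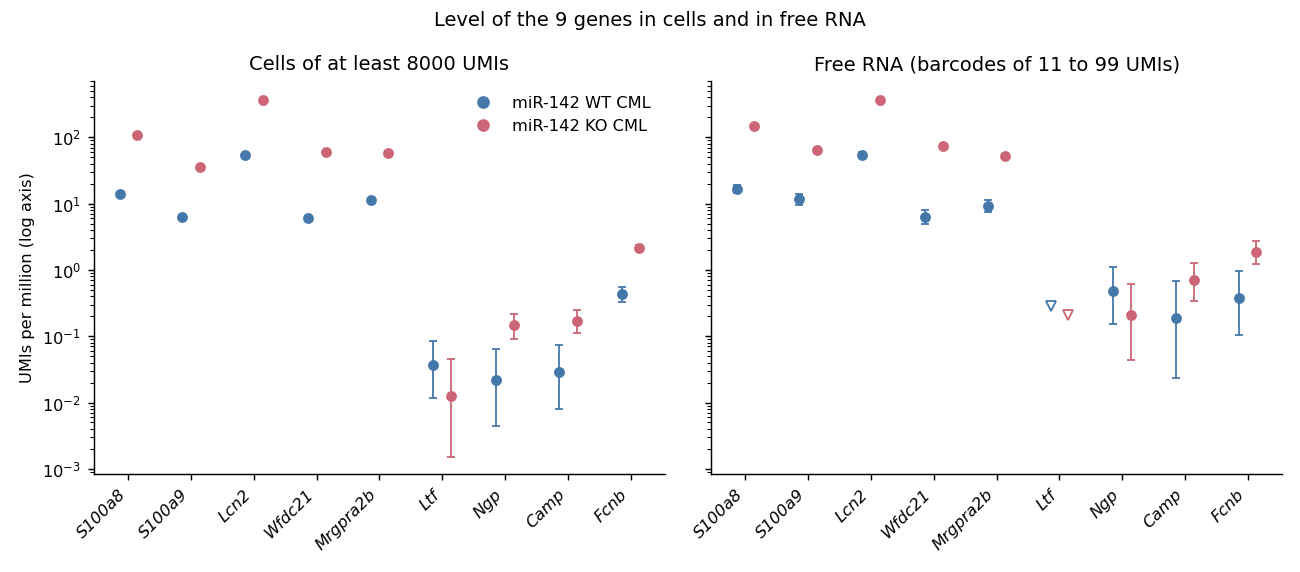
Level of each of the 9 genes in CPM (log axis) in cells (left) and in free RNA (right), with exact Poisson 95% intervals for counting error and 1 library per colour. Open triangles mark the floor of 3 counts where a gene had 0 UMIs. Lcn2 stands highest and S100a8 next in both panels and in both libraries.

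Droplets without a cell carry RNA released from broken cells, and this free RNA was measured in barcodes of 11 to 99 UMIs, with 10471004 UMIs in WT against 14304147 UMIs in KO. Ltf had 0 UMIs there in both libraries, Ngp 5 and 3, Camp 2 and 10 and Fcnb 4 and 27. Lcn2 stood at 54.4 CPM in WT free RNA and 368 CPM in KO free RNA, so that its level in cells was 97.7% (89.7 to 107) and 99.4% (96.6 to 102) of that in free RNA. S100a8 stood at 16.7 and 150.1 CPM and S100a9 at 11.6 and 63.2 CPM, and in KO their cell levels were 71.1% (67.9 to 74.3) and 56.5% (52.7 to 60.7) of the free level. Wfdc21 stood at 6.30 and 74.7 CPM, with cells at 95.6% (74.4 to 125) and 78.9% (74.0 to 84.1). Mrgpra2b stood at 9.26 and 52.9 CPM, with cells at 123% (100.1 to 152) and 111% (103 to 119.6). Among 9148 genes with 50 free UMIs in KO, the median gene stood in cells at 122% of its free level, and 75.2% stood at or above it. In KO the alarmins and Wfdc21 were therefore below that median and below the value that 95% of those genes exceeded, 81.7%. These percents depended on the barcodes taken as free RNA. Against barcodes of 100 to under 300 UMIs the KO cell levels of S100a8, S100a9 and Wfdc21 were 134%, 121% and 115%, above the free level. With free RNA subtracted at the share that hemoglobin transcripts gave, 66.5% in WT and 68.5% in KO, the log2 ratio of S100a8 in cells was 0.42 and S100a9 had no value left, while Lcn2 kept 2.83. The hemoglobin gene Hbb-bt differed between cell groups, from 2.65 CPM to 126 CPM in WT, against 91.4 (WT) and 162 (KO) CPM in free RNA. In KO it stood above that free level in lymphoid-primed-like (484 CPM) and HSC-like cells (449 CPM). In the neutrophil-leaning-like cells described further on its level was 4.28 (WT) and 12 (KO) CPM. Megakaryocyte-like cells held the summed 9 genes at 2.09% (WT) and 2.22% (KO) of their free level. What share of the UMIs in cells was free RNA was not tested. The 5 of these genes that reached 50 free UMIs over both libraries all lay at least 2-fold higher in KO free RNA, where 1.61% of 10369 genes did.

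The S100a8 and S100a9 in WT free RNA came in part from a few barcodes. In WT, 14 barcodes of 11 to 99 UMIs held 3 or more UMIs of S100a9 each, 71 of its 121 free UMIs, and 8 barcodes held 40 of the 175 free UMIs of S100a8. No KO barcode of that range held more than 2 UMIs of either gene. Without those barcodes the WT free level was 4.78 CPM for S100a9 and 12.9 CPM for S100a8. In 16 WT barcodes the 9 genes made up 10% or more of the UMIs. Of their 476 UMIs, 50 were S100a8, 66 were S100a9, 5 were Ngp and 0 were Elane, and these 5 are all the Ngp UMIs of WT free RNA. In KO 5 barcodes reached 10%, with 1 UMI of S100a8 and 0 of Ngp among their 85 UMIs. What the 16 WT barcodes were was not tested. Left out of the free RNA, they raised the WT cell level of S100a9 from 53.6% (44.3 to 65.4) to 118% (89.7 to 158) of the free level.

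Levels also followed the size of the barcode. In KO, S100a8 went from 157 CPM in barcodes of 11 to 49 UMIs to 79.3 CPM at 100 to under 300, 9.11 CPM at 1000 to under 3000 and 6.40 CPM at 3000 to under 8000 UMIs, just under the floor for cells, and stood at 107 CPM at 8000 UMIs or more. Lcn2 went from 377 CPM in the smallest of these KO barcodes to 48.0 CPM at 3000 to under 8000 and 366 CPM at 8000 UMIs or more. In WT, S100a9 stood at 56.6 CPM in barcodes of 50 to 99 UMIs and at 1.90 CPM in those of 100 to under 300, with 44 and 25 UMIs. Barcodes of at least 100 UMIs in which the 9 genes made up 5% or more of the UMIs numbered 0 in both libraries, and the highest share among cells was 1.0% in WT and 4.16% in KO.

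**Figure D2:**
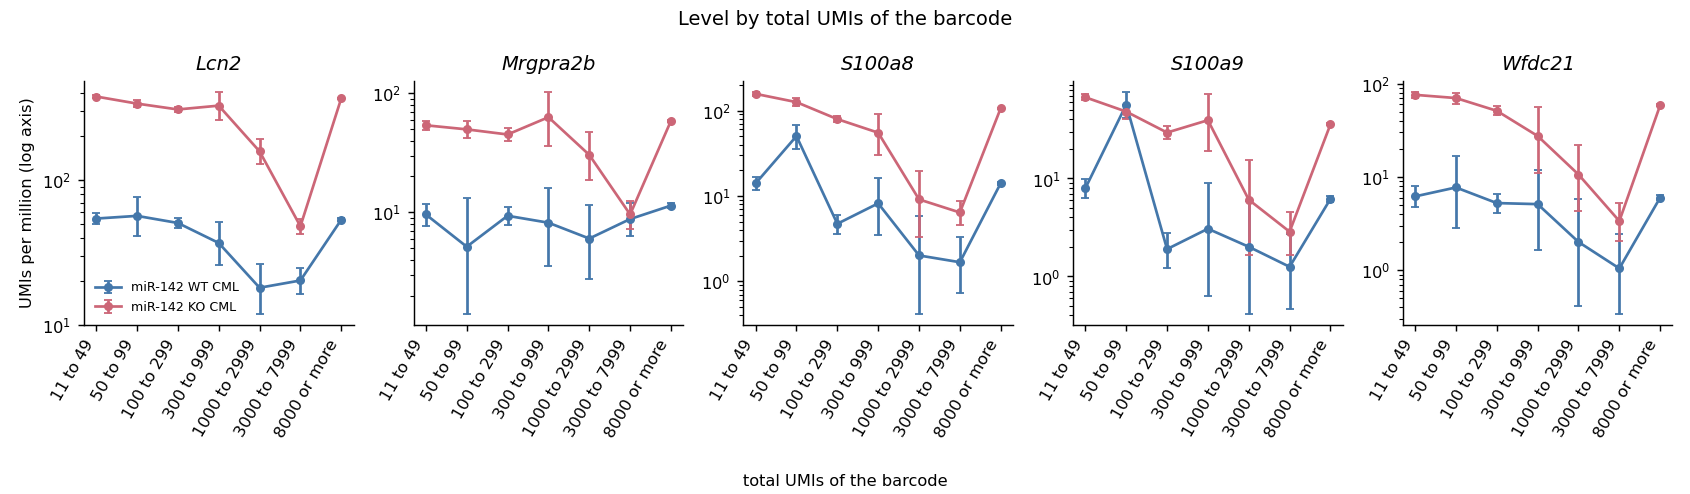
Level of the 5 most abundant genes in CPM (log axis) by the total UMIs of the barcode, with exact Poisson 95% intervals and 1 library per colour. Barcodes of 3000 to under 8000 UMIs are the low point of S100a8 in both libraries (1.67 CPM in WT against 6.40 CPM in KO), and the WT line of S100a9 has a peak at 50 to 99 UMIs.

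To ask in which cells the genes were found, each cell was placed by its primary granule share, the part of its UMIs (after thinning to 8000 UMIs) that came from Mpo, Elane, Prtn3 and Ctsg. The 9 genes have no part in that share. Cells with a share of 1% or more were 517 in WT and 2003 in KO. By the marker gates described further on, they included 145 neutrophil-leaning-like and 264 monocyte-leaning-like cells in WT, against 1375 and 220 in KO. The bands of 1% or more thus differ in makeup between the libraries. Cells under 0.1% were 39.9% of WT and 14.7% of KO cells.

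Lcn2 and Mrgpra2b were found at lower granule shares than the others. In the band of 0.3 to 1%, Lcn2 stood at 33.0 CPM (1065 UMIs) in WT against 204 CPM (8230 UMIs) in KO, and Mrgpra2b at 19.3 and 57.1 CPM. In the same cells S100a8 stood at 0.619 CPM (20 UMIs) and 2.35 CPM (95 UMIs), S100a9 at 0.712 and 0.942 CPM and Wfdc21 at 0.588 and 1.16 CPM. At 2% or more Mrgpra2b stood at 27.5 CPM in WT against 83.0 CPM in KO, and Lcn2 at 261 and 601 CPM. Within every one of the 5 bands both genes were higher in KO, Lcn2 by a log2 ratio from 1.20 (1.14 to 1.27) at 2% or more to 2.63 (2.54 to 2.72) at 0.3 to 1%. Under 0.1%, however, Lcn2 stood at only 1.95% (WT) and 1.06% (KO) of its free level and Mrgpra2b at 9.22% and 3.36%. These low levels are not read as expression in those cells.

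S100a8, S100a9, Wfdc21 and Fcnb were found almost only in cells of 1% or more. S100a8 went from 32.5 CPM at 1 to 2% to 140.3 CPM at 2% or more in WT, and from 48.3 to 366 CPM in KO. Wfdc21 went from 14.4 to 57.6 CPM in WT and from 37.6 to 189 CPM in KO. At 1 to 2% S100a9 stood at 15.6 CPM in WT against 14.7 CPM in KO, with a log2 ratio of -0.09 (-0.27 to 0.10). In WT 217 of the 365 UMIs lay in a single cell, and without the top cell of each library the levels were 6.34 and 12.3 CPM. That cell thus decided the ratio in this band. The WT value of S100a8 there also leaned on a single cell, with 287 of 762 UMIs, and was 20.4 CPM without it. At 2% or more S100a9 stood at 51.7 and 124 CPM, with 223 of the 422 WT UMIs in a single cell. Fcnb stood at 5.40 and 7.63 CPM there, with a log2 ratio of 0.50 (0.04 to 0.99). Of the 6 well detected genes, 3 lay at least 2-fold above WT at 1 to 2% and 5 at 2% or more, against 3.43% and 3.24% of the genes tested. In the lower bands, fewer of the genes had 50 UMIs, and 3 of 5 at 0.3 to 1% (2.43% of all genes), 3 of 3 at 0.1 to 0.3% (2.58%) and 2 of 2 under 0.1% (4.47%) lay that far above WT. Weighted to 1 composition of the 5 bands, the log2 ratio was 1.25 for S100a8, 0.92 for S100a9, 1.68 for Lcn2, 1.65 for Wfdc21, 1.57 for Mrgpra2b and 0.50 for Fcnb. All 6 weighted ratios were smaller than those over all cells, though the bands of 1% or more differ in makeup between the libraries. What part the larger number of KO cells with a high granule share had in the ratios over all cells was not tested.

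**Figure D3:**
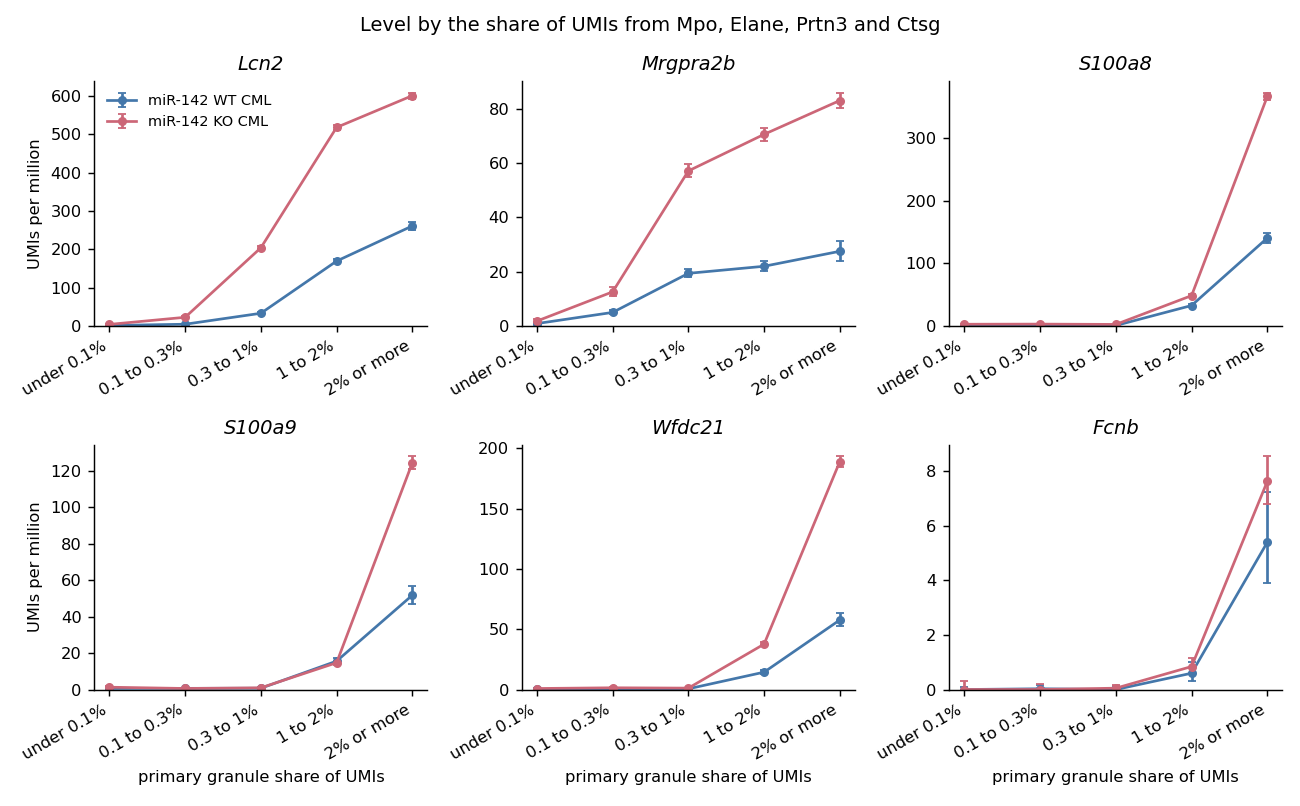
Level of the 6 well detected genes in CPM (linear axis from 0) by the share of a cell's UMIs that came from Mpo, Elane, Prtn3 and Ctsg, with exact Poisson 95% intervals and 1 library per colour. Lcn2 and Mrgpra2b climb from 0.1 to 0.3% on, with KO Lcn2 at 22.5 CPM there against 3.89 CPM under 0.1%, and the other 4 from 1% on.

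The genes also differed in how many cells held them. For S100a9, 50% of the UMIs lay in 2 WT cells and 15 KO cells, and for S100a8 in 5 and 40 cells. For Wfdc21 it took 25 and 176 cells, for Mrgpra2b 160 and 667 cells and for Lcn2 134 and 750 cells. The top WT cell had 287 UMIs of S100a8 and another 223 UMIs of S100a9, and the top KO cells had 1132 and 826. The 54 WT cells richest in S100a8, 1% of that library, held 91.7% of its UMIs, and the 55 richest KO cells held 57.8%. Without the 1% of cells with most UMIs of the 9 genes, the log2 ratio of S100a8 was 4.78 in place of 2.92, and that of Mrgpra2b 2.43 in place of 2.37. The WT level of the alarmins thus rested on a few cells, and that of Mrgpra2b did not. The cut took 1% of each library, though cells with a granule share of 1% or more were 517 in WT and 2003 in KO. It can take a larger part of the cells that hold these genes in WT, so 4.78 is not read as a larger difference.

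**Figure D4:**
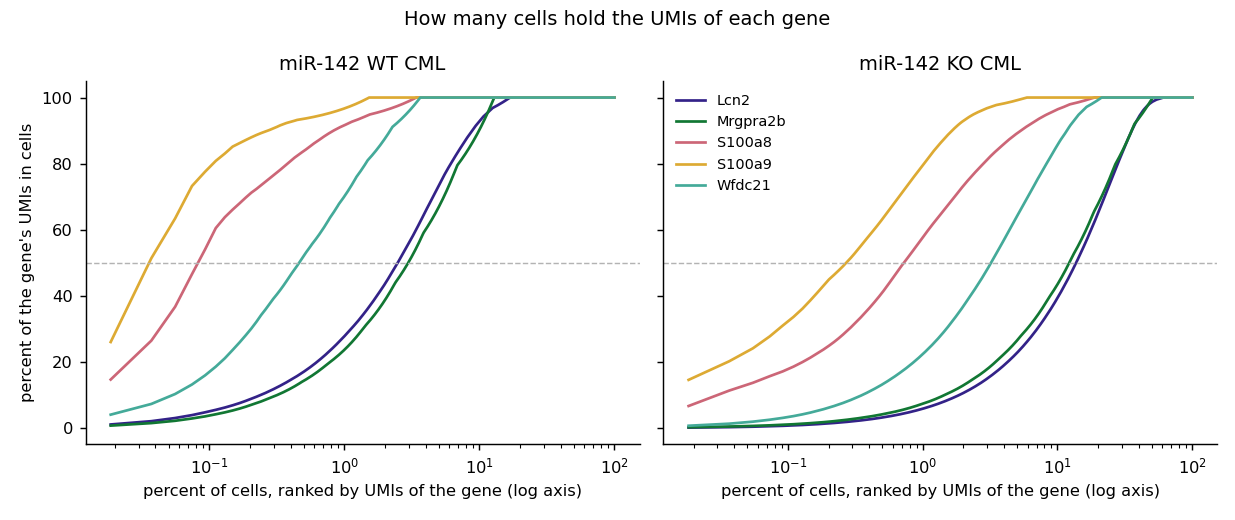
Percent of each gene's UMIs in cells (vertical axis) held by the given percent of cells, ranked by their UMIs of that gene (log axis), for WT (left) and KO (right). The dashed line marks 50 percent, which S100a9 reaches with 2 WT cells and 15 KO cells and Lcn2 with 134 and 750.

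After each cell was thinned to 8000 UMIs, a UMI of Lcn2 was found in 532 WT cells (9.92%, exact 95% binomial interval 9.13 to 10.8) and in 2873 KO cells (52.6%, 51.3 to 54.0). For Mrgpra2b the shares were 4.83% (4.27 to 5.44) and 25.8% (24.6 to 27.0), for Wfdc21 1.27% (0.986 to 1.60) and 12.5% (11.6 to 13.4), and for S100a8 1.16% (0.887 to 1.48) and 9.86% (9.08 to 10.7). S100a9 was found in 0.727% (0.518 to 0.993) and 3.04% (2.60 to 3.53) of cells. Megakaryocyte-like cells, which should lack these genes, served as the background. With median depths of 17256 and 13333 UMIs, 0 of 257 WT ones had Lcn2, which allows up to 1.43%, and 13 of 247 KO ones did (5.26%, upper bound 8.83%). For S100a8 the background was 0.778% (upper bound 2.78%) in WT and 1.62% (4.09) in KO, and for S100a9 1.17% (3.37) and 0.810% (2.89). The WT shares of S100a8, S100a9 and Wfdc21 were within the range of that background and are not read as expression in that many cells. Above the background of their library lay the WT shares of Lcn2 and Mrgpra2b and the KO shares of Lcn2, Mrgpra2b, Wfdc21 and S100a8. Unthinned, the shares were 16.9% and 61.0% for Lcn2 and 3.41% and 18.7% for S100a8.

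Cells with 5 or more thinned UMIs of S100a8 numbered 10 in WT and 124 in KO. All 10 WT and 123 of the 124 KO cells had a granule share of 1% or more. In these cells S100a8 stood at 2233 CPM in WT against 2058 CPM in KO, S100a9 at 1162 and 771 CPM and Wfdc21 at 253 and 469 CPM. A UMI of S100a9 was found in 6 of the 10 and in 89 of the 124, and one of Lcn2 in 9 and 118. Even here Ltf had 0 UMIs in both libraries, Ngp 1 and 6, Camp 0 and 12, and Retnlg 1 and 0. The sort marker Kit was lower in them than over all cells, at 18.7 CPM in WT against 45.2 CPM in KO, and Ly6a stood at 17.0 and 61.3 CPM.

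The cells were also gated by marker genes, none of which is among the 9. The gates were set after the data had been seen, and each needed 3 detected markers. Neutrophil-leaning-like cells (Gfi1, Cebpe, Gstm1 and others, with a granule share of 1% or more) numbered 145 in WT (2.70% of cells) and 1375 in KO (25.2%). Monocyte-leaning-like cells (Irf8, Ly86, Csf1r and others, same share) were 264 (4.92%) and 220 (4.03%).

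In neutrophil-leaning-like cells Lcn2 stood at 217 CPM in WT against 585 CPM in KO, S100a8 at 106 and 239.9 CPM, Wfdc21 at 37.7 and 129 CPM, S100a9 at 46.4 and 80.8 CPM and Mrgpra2b at 31.3 and 79.5 CPM. The log2 ratios ran from 0.80 (0.66 to 0.95) for S100a9 to 1.78 (1.62 to 1.94) for Wfdc21, and Fcnb was at 0.27 (-0.23 to 0.82). Of the 6 genes 4 lay at least 2-fold above WT, where 3.02% of the genes tested in these cells did. In monocyte-leaning-like cells Lcn2 (169 and 466 CPM) and Mrgpra2b (18.3 and 65.8 CPM) also stood higher in KO, with log2 ratios of 1.47 (1.40 to 1.54) and 1.85 (1.65 to 2.05). S100a8 stood at 24.6 and 37.0 CPM there. S100a9 stood at 14.8 and 10.7 CPM, lower in KO unlike the other 4 genes with 50 UMIs there, with a log2 ratio of -0.47 (-0.82 to -0.13). A single WT cell held 223 of the 246 UMIs of S100a9 in that group and a single KO cell 70 of 98, and without those cells the levels were 1.39 and 3.06 CPM. In the WT neutrophil-leaning-like cells 1 cell likewise held 217 of the 412 UMIs of S100a9. The 1% of cells in each library richest in the 9 genes can be a larger part of the cells that hold them in WT than in KO. Without these richest cells the log2 ratios of S100a9, not read as larger differences, were 5.48 in the neutrophil-leaning-like and 3.04 in the monocyte-leaning-like cells. Of the 5 genes with 50 UMIs in all monocyte-leaning-like cells 2 lay at least 2-fold above WT, where 1.69% of all genes did. In cells with tied gates (462 WT and 379 KO) S100a8 (49.5 and 19.7 CPM) and S100a9 (12.4 and 1.58 CPM) were lower in KO. Lcn2, Wfdc21 and Mrgpra2b were higher there. How far single cells decided these values was not tested. Summed over the 9 genes, the log2 ratio was 1.34 (1.29 to 1.39) in the neutrophil-leaning-like and 1.33 (1.27 to 1.38) in the monocyte-leaning-like cells. Weighted to 1 composition of 9 cell groups, which cover 96.1% of WT and 94.2% of KO cells, the log2 ratio was 1.65 for the summed genes, 1.92 for Lcn2 and 0.97 for S100a8. These groups include the cells in no gate and those with tied gates, which are not defined by a cell type. In the cells of no gate the log2 ratio of the summed genes was 2.69 (2.63 to 2.76).

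In other cell groups the levels were read against free RNA. In lymphoid-primed-like cells (Flt3, Dntt, Satb1) S100a8 stood at 0.393 CPM in WT against 1.93 CPM in KO, 2.35% and 1.29% of the free level. S100a9 stood at 0.742 and 0.644 CPM, 6.42% and 1.02% of it, and Lcn2 at 2.62 and 15.5 CPM, 4.81% and 4.19% of it. Mrgpra2b differed, at 5.37 CPM (123 UMIs) and 15.7 CPM (122 UMIs), which were 58.0% and 29.7% of its free level. In the same cells Elane stood at 1.92% and 1.24% of its free level. In HSC-like and megakaryocyte-like cells Mrgpra2b stood at between 5.20% and 8.93% of its free level. Basophil-like cells held Lcn2 at 57.4 CPM in WT against 101 CPM in KO, which were 105% and 27.3% of its free level, where Elane stood at 3.51% and 5.28% of its own. S100a9 had 19 UMIs in WT basophil-like cells (65.1% of its free level), 9 of them in 1 cell, and 3 UMIs in KO ones (1.62%). Mast cell-like cells held Lcn2 at 2.75 and 34.1 CPM, 5.05% and 9.25% of its free level, and the 181 KO innate lymphoid-like cells at 120.3 CPM (32.6%). The median barcode of 100 to under 300 UMIs held 189 UMIs in WT against 124 UMIs in KO, 0.972% and 0.513% of a median cell.

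**Figure D5:**
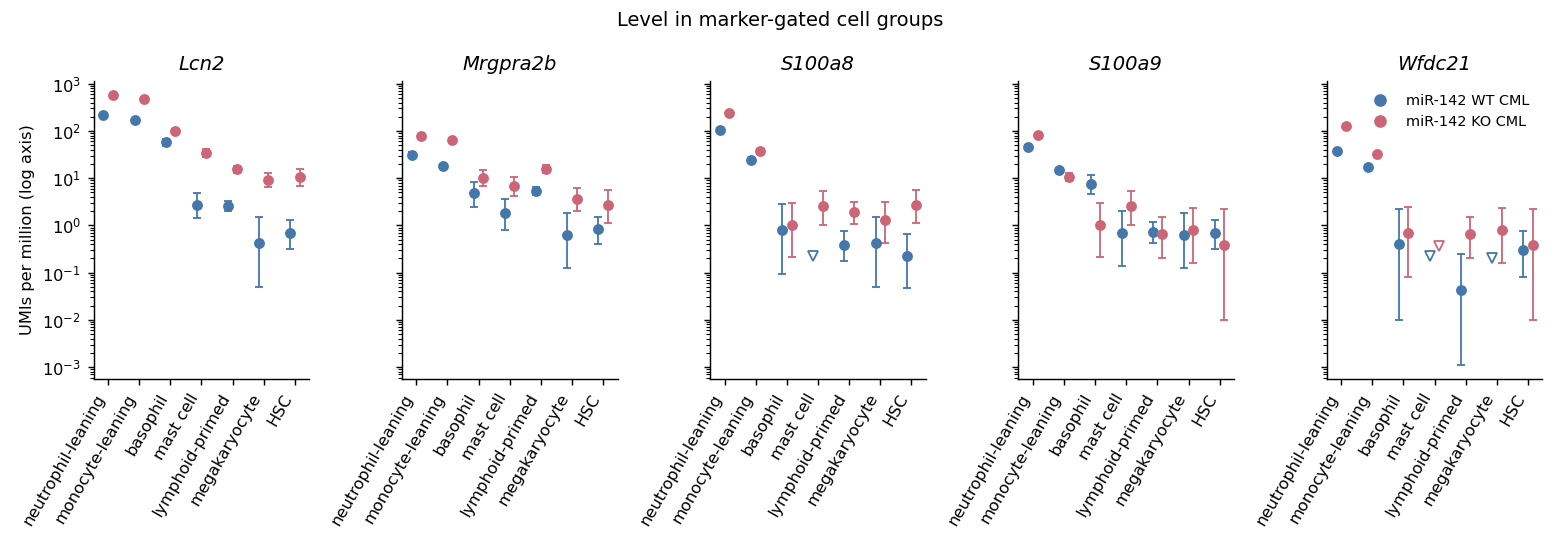
Level of the 5 most abundant genes in CPM (log axis) in 7 marker-gated groups of cells, with exact Poisson 95% intervals and 1 library per colour. Open triangles mark the floor of 3 counts where a group had 0 UMIs. S100a8 and Wfdc21 stand out in the neutrophil-leaning and monocyte-leaning groups, S100a9 in the neutrophil-leaning group, and Mrgpra2b is also raised in the lymphoid-primed group. The S100a9 points of the monocyte-leaning group rest on a single cell per library, with 223 of 246 UMIs in WT and 70 of 98 in KO.

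Across cells the closest pairs were those among S100a8, S100a9 and Wfdc21. S100a8 and S100a9 correlated at r = 0.70 over the 5363 WT cells and 0.76 over the 5458 KO cells, S100a8 and Wfdc21 at 0.68 and 0.78, and S100a8 and Mrgpra2b at 0.14 and 0.24. Lcn2 correlated with Mrgpra2b at 0.31 and 0.55, with Wfdc21 at 0.44 and 0.46 and with S100a8 at 0.36 and 0.35. Within KO cells of a granule share of 1% or more, S100a8 and Lcn2 correlated at 0.19, S100a8 and Wfdc21 at 0.74, Lcn2 and Mrgpra2b at 0.16 and Lcn2 and Wfdc21 at 0.22. Of the KO cells with a thinned UMI of S100a8, 90.1% (87.3 to 92.5) also had one of Lcn2, while 16.9% (15.5 to 18.3) of those with Lcn2 had S100a8. The cells of a library share its free RNA and differ in depth, so these values are descriptions. Of 7123 other genes at 10 CPM in both libraries, those most like the summed 9 were Elane (r = 0.76 in WT and 0.85 in KO), Ms4a3 (0.72 and 0.84), Dmkn (0.72 and 0.76), Trem3 (0.71 and 0.77) and Hp (0.70 and 0.86).

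Cells of a granule share of 1% or more were also split by their detected G2/M phase markers. In KO, 1245 of them had 5 or more of 10 detected G2/M markers and 165 had 0 or 1, with median depths of 48934 and 22970 UMIs. S100a9 stood at 67.7 CPM (65.7 to 69.8) in the first and 18.0 CPM (14.1 to 22.7) in the second, and S100a8 at 190.3 CPM (187 to 194) and 106 CPM (96.6 to 117). The second value of S100a9 rests on 72 UMIs, and over all KO cells 1 cell held 826 of its 5657 UMIs. How far single cells decided these differences was not tested. Lcn2 (549 and 572 CPM), Mrgpra2b (72.3 and 77.0 CPM) and Wfdc21 (107 and 97.2 CPM) had overlapping intervals, and Fcnb stood at 3.07 CPM (2.65 to 3.53) and 7.75 CPM (5.27 to 11). In WT only 13 such cells had 0 or 1 marker.

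Related genes, from lists drawn up with earlier results of these data known, were read against all 7772 genes at 10 CPM in either library, of which 1.26% were at least 2-fold higher and 1.78% at least 2-fold lower in KO, with a median log2 ratio of -0.08. Of the other secondary and tertiary granule genes 14 of 30 reached 10 CPM, 5 were at least 2-fold higher and 0 lower, with a median of 0.53. They included the peptidoglycan-binding protein gene Pglyrp1 (log2 ratio 1.81, 1.77 to 1.86), the haptoglobin gene Hp (1.56) and the granule membrane gene Cd63 (1.42), against the protease inhibitor gene Slpi (-0.69). Of the primary granule genes 4 of 13 were at least 2-fold higher and 0 lower, with a median of 0.86, led by Elane (1.98). On the list of other S100 genes, which also holds S100pbp, the gene of an S100P-binding protein, 7 reached 10 CPM and 0 passed 2-fold in either direction. S100a10 (278 and 153 CPM) and S100a6 (138 and 137 CPM) stood beside S100a11 (264 and 345 CPM). The median over these 7 was -0.01, S100pbp (-0.35) included.

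On the list of receptors of alarmins and granule proteins and their partners, which holds the adaptor gene Myd88, only Bsg, Emb and Myd88 reached 10 CPM, and none lay 2-fold apart (log2 ratios 0.35, -0.34 and 0.04). Among relatives by family, the whey acidic protein gene Wfdc12 went from 131 UMIs (0.948 CPM) in WT to 1626 UMIs (10.3 CPM) in KO, with a log2 ratio of 3.44 (3.18 to 3.70), while Wfdc17 was lower in KO (-0.57). Mast cell-like cells held 93.9% of the Wfdc12 UMIs in WT and 95.4% in KO, so its level belongs to another cell group than that of Wfdc21. Mrgpra2a was the only other Mrgpr gene at 10 CPM (4.62 and 23.3 CPM, log2 ratio 2.34). The cystatin genes Cst3, Cst7 and Cstb had log2 ratios from 0.43 to 0.63, and 0 of 5 ficolin and lectin relatives reached 10 CPM. Of 16 granulocyte transcription factor genes at 10 CPM, 2 were at least 2-fold higher and 1 at least 2-fold lower, with a median of 0.02. Cebpe, the gene of C/EBP-epsilon, had 762 UMIs (5.51 CPM) in WT against 6727 UMIs (42.5 CPM) in KO, with a log2 ratio of 2.94 (2.84 to 3.05), Gfi1 was at 1.19 (1.13 to 1.25), and the monocyte factor gene Irf8 at -1.02 (-1.07 to -0.98).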

How the data were processed

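LSK cells of the miR-142 WT CML library and of the KO counterpart, about 8000 captured cells each, were examined. The authors deposited whole-number UMI counts per gene and barcode for every barcode, and the submitters' processing notes name Cell Ranger 6.1.2 and mm10, whereas the version in the matrix headers differs. The 9 genes, the lists of related genes and the gates were chosen with earlier results of these data known.

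Barcodes of at least 8000 UMIs with under 10% mitochondrial UMIs were kept as cells, which removed 24 WT and 4 KO barcodes. Barcodes of 11 to 99 UMIs served as free RNA. Counts were summed per library or cell group and divided by all UMIs summed. Intervals are exact 95% Poisson intervals for levels, exact conditional binomial intervals for ratios and exact binomial intervals for shares. No test between libraries was made, since each group has 1 library. Where a group had 0 UMIs the floor was 3 counts. Shares, granule shares and gates used counts thinned once per cell to 8000 UMIs, which every cell reached. Gates took 3 or more detected markers, and cells with equally many markers of more than 1 gate (462 WT and 379 KO) or in no gate (1700 and 1923) were kept apart. Within 10% of the cut at 80 primary granule UMIs (1%) lay 126 WT and 266 KO cells, and of the cut at 24 UMIs (0.3%) 209 and 216. Doublets were kept, and a Scrublet score was used as an alternative only.

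The genes described are the 9, the 5 genes most like their sum (by the lower of the 2 libraries' Pearson r over cells, on the log of counts scaled to each cell's total), and genes of the lists at 10 CPM or more. Gene positions are those of GENCODE vM21 on GRCm38, whose annotation gave the 3′ untranslated regions, and microRNA and promoter sequences are those of RefSeq on the same build. Wfdc21 was not in the promoter table. Python 3.11.15, numpy 2.4.6, scipy 1.17.1, pandas 2.3.3 and scanpy 1.11.5 were used. The intervals of ratios were tried on simulated counts with Poisson error only. Those counts leave out the gathering of UMIs in a few cells, so the trial does not show that the intervals hold for these data.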

Additional observations from a re-analysis of the deposited data

Results flagged for a closer look

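S100a9 moved in opposite directions in neighbouring cell groups. Its log2 ratio of KO over WT was 0.80 in the neutrophil-leaning-like and -0.47 in the monocyte-leaning-like cells, and the difference between the groups was not tested. A single WT cell held 223 of the 246 UMIs behind the second value.

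In WT barcodes of 50 to 99 UMIs, S100a8 stood at 50.2 CPM and S100a9 at 56.6 CPM, above the 4.72 and 1.90 CPM of WT barcodes of 100 to under 300 UMIs. These barcodes lie under the floor for cells, and what they were was not tested. Barcodes with 3 or more UMIs of the gene, 4 for S100a8 and 6 for S100a9, held 20 of the 39 and 28 of the 44 UMIs, and in KO no barcode of that size had 3.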

How the results depend on the processing

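No paired analysis was possible because each group has 1 library. Of 210 values computed under alternatives, 1 ratio between the libraries turned its direction, that of S100a9 in monocyte-leaning-like cells, which went from -0.47 to 3.04 without the 1% of cells with most UMIs of the 9 genes. The log2 ratio of the summed genes, 2.78, was 2.92 with a size factor, 2.69 in cells of at least 16000 UMIs and 3.20 without the 1% richest cells. It was 2.56 with free RNA subtracted at the hemoglobin share. At 1 composition of cell groups, those of no gate and of tied gates included, it was 1.65, and at 1 composition of granule share bands 1.55. It moved by less than its interval with cells of over 300 UMIs, without the highest Scrublet scores (4.29% of WT and 4.36% of KO cells) or with 1 droplet load subtracted. In cells as a percent of free RNA, the sum was 92.1% in WT and 88.3% in KO. With free RNA from barcodes of 11 to 49 UMIs this was 98.7% and 85.6%, from 50 to 99 UMIs 50.04% and 99.3%, and from 100 to under 300 UMIs 127% and 122%, so that both sums passed from below to above the free level. In cells of at least 16000 UMIs it was 110.2% and 98.8%, in KO cells of over 300 UMIs 85.1%, and in WT without barcodes of 10% or more UMIs of the 9 genes 105%. In neutrophil-leaning-like cells the summed ratio of 1.34 was 1.20 with 1 marker more per gate and 1.90 without the 1% richest cells, and in monocyte-leaning-like cells 1.33 became 1.71 without them. The 1% richest can be a larger part of the cells that hold these genes in WT than in KO. Ratios without them are therefore not read as larger differences. Shares of cells with S100a8 were 3.41% in WT and 18.7% in KO without thinning and 0.839% and 6.89% at 4000 UMIs, and those with Lcn2 were 16.9% and 61.0% without thinning and 6.13% and 43.8% at 4000 UMIs. Thinning keeps fewer UMIs, which lowers these shares by its construction, and for the other values that moved the cause was not tested. Alternatives with 1 droplet load subtracted, granule share bands, barcodes of 100 to under 300 UMIs, gates without the 1% richest cells and free RNA without rich barcodes were chosen after seeing the data. Depth limits Ltf, Ngp and Camp, whose levels rest on 2 to 27 UMIs, and the spread between mice cannot be read from 1 library per group.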
